A study of Mus musculus with 24 samples.

Results

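The transcripts of the 10 zinc-dependent histone deacetylases of class I and class II, Hdac1 to Hdac10, were followed in the mouse cerebellum by every array probe whose transcript accession maps to one of these genes. That gave 19 of the 56605 probes on the array and 10 of the 22911 gene symbols. Total RNA of cerebellum from C57BL/6 mice at postnatal day 28 was measured on 24 single-colour arrays in 12 groups of 2 arrays. Controls carried floxed Derlin-1 (Derlin-1 flox/flox) or floxed Derlin-2 (Derlin-2 flox/flox) without Cre, and the corresponding knockouts (KO) were made by crossing in a Cre recombinase under the nestin promoter, so that every group, controls included, carries a floxed allele. Nestin-Cre acts in neural precursors and their descendants, and other cells of the tissue keep the gene. 4-phenylbutyrate (4PBA), at 200 mg/kg, or water as vehicle was injected intraperitoneally every day from day 14 to day 28. The Derlin-2 line and 1 Derlin-1 series carry numbered replicates, and a further Derlin-1 series carries the letters a and b. Its arrays without 4PBA name no vehicle and are called untreated. The labels do not say that replicates came from separate mice, so p-values measure the spread between these samples, which may be technical in part.

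Histone deacetylases remove acetyl groups from lysines of histones and other proteins. Class I enzymes (Hdac1, Hdac2, Hdac3 and Hdac8) lie mainly in the nucleus, where Hdac1 and Hdac2 form the catalytic core of the Sin3, NuRD and CoREST complexes and Hdac3 that of the NCoR complexes. Class IIa enzymes (Hdac4, Hdac5, Hdac7 and Hdac9) bind Mef2 transcription factors and shuttle between nucleus and cytoplasm when kinases phosphorylate them and 14-3-3 proteins hold them. Class IIb holds Hdac6, which deacetylates tubulin in the cytoplasm, and Hdac10, which acts on acetylated polyamines. 4PBA is used as a chemical chaperone and also inhibits deacetylases of these classes. Its block is on enzyme activity, which an array of transcripts does not measure.

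Between 57.7% and 68.4% of the spots of an array passed the scanner software's background test, and no spot was saturated. Each series lay on a slide of its own, with the arrays without 4PBA in row 1, those with 4PBA in row 2, and controls and knockouts in separate columns, so position and group cannot be told apart. Derl2 (probe A_51_P498831), the gene removed in the Derlin-2 line, lay at 0.18 to 0.48 on 3 Derlin-2 KO arrays and at 1.72 on the vehicle 1 array of that label, against 1.40 to 1.58 in Derlin-2 controls. Derl3 (A_55_P2743349), another member of the Derlin family, lay at -0.63 to 0.37 on 7 Derlin-1 KO arrays and at -2.27 on the 4PBA b array of the lettered Derlin-1 KO, against -3.14 to -1.69 in Derlin-1 controls. Derl1 (A_51_P504522) overlapped between Derlin-1 KO arrays (0.14 to 0.94) and Derlin-1 controls (0.76 to 1.22), and whether this probe lies in the deleted part is not known here. The comparisons were also run without these 2 arrays that stand apart. Markers of granule neurons, Purkinje cells, oligodendrocytes and Bergmann glia were well above background on all 24 arrays. In bulk RNA, fewer cells of a type and less RNA per cell cannot be told apart.

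A level below is the log2 intensity of a probe minus that of the array's 75th percentile, and a change is a difference of such levels. Levels of different probes depend on the probes' own sequences and are not set against each other. Of the 19 probes, 17 were well above background on all 24 arrays, which covered all 10 genes. 4 genes had 1 probe, 5 had 2 and Hdac9 had 5. The 2 dimmest probes were both of Hdac9: A_51_P255467 was above background on 12 arrays, and A_55_P2065074 on 0 arrays, so the latter was not tested. The 18 tested probes were fitted with all 38323 kept probes in limma, and a probe was called at a Benjamini-Hochberg adjusted p under 0.05.

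**Figure D1:**
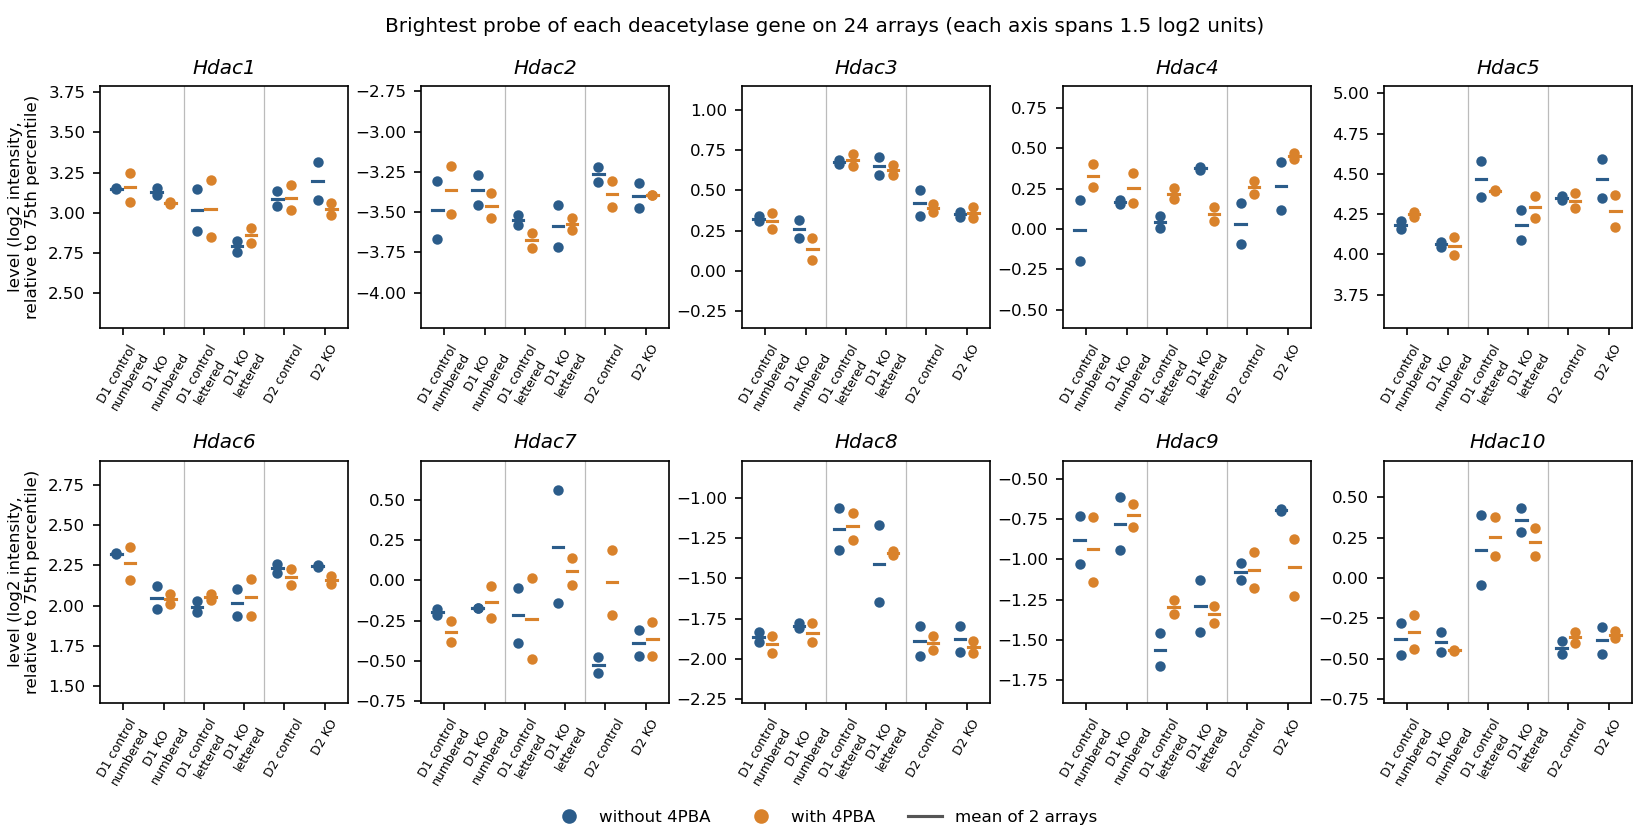
Level of the brightest probe of each of the 10 genes on each of the 24 arrays (y axis, log2 intensity relative to the array's 75th percentile, 1.5 log2 units per panel), by group (x axis; D1 and D2 stand for the Derlin-1 and Derlin-2 lines). Points are arrays, bars are means of 2 arrays, blue is without and orange with 4PBA, and grey lines part the 3 slides. The widest gap between blue and orange means of a genotype is that of Hdac7 in Derlin-2 controls (0.51), and Hdac3, Hdac8 and Hdac10 are higher on the lettered slide.

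None of the 18 probes was called for 4PBA in limma. Averaged over all 6 pairs of groups (12 arrays with against 12 without 4PBA), 0 of 18 passed, where 0.554% of all probes did. At an unadjusted p under 0.05 there were 5 of 18, against 8.41% of all probes. The changes ran from -0.27 to 0.70 with a median of -0.02, beside -0.01 over all probes. Of the 18, 7 lay above 0 and 11 below, where 46.5% of all probes lay above. The median standard error (SE) was 0.06. For 17 of the 18 probes the 95% interval of the change lay within 0.5 log2 units on either side of 0, which held for 76.8% of all probes; the dim Hdac9 probe A_51_P255467 was the exception.

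Within genotypes the count was 0 of 18 as well. In Derlin-1 controls 0.0522% of all probes were called, and 3 of 18 deacetylase probes had an unadjusted p under 0.05, against 2.38% of all probes. In Derlin-1 KO the background was 0.0809%, and 0 of 18 had an unadjusted p under 0.05, against 5.54%. In Derlin-2 controls it was 0.282%, and 4 of 18 had an unadjusted p under 0.05, against 6.53%. In Derlin-2 KO it was 0.264%, and 1 of 18 had an unadjusted p under 0.05, against 7.91%. Across the 6 single pairs of groups and 18 probes, 0 of 108 changes with 4PBA passed, and the lowest limma adjusted p was 0.198. Comparisons of KO with control are counted over the 17 probes above background on all arrays, since A_51_P255467 was kept only through KO groups. The difference between KO and controls in the 4PBA change was called at 0 of 17 probes in the Derlin-1 line, beside 0.0444% of all probes, and 2 had an unadjusted p under 0.05, against 2.33% of all probes. In the Derlin-2 line it was called at 0 of 17, beside 0.206%, and 0 had an unadjusted p under 0.05, against 5.02%.

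Loss of Derlin-1 without 4PBA gave 0 of 17 calls in a comparison that called 5.04% of all probes, and 4 of 17 had an unadjusted p under 0.05, against 20.2% of all probes. Their changes ran from -0.28 to 0.36, and 11 of the 17 intervals lay within 0.5 of 0, which held for 49.1% of all probes. With 4PBA, Derlin-1 KO against control called 0 of 17, beside 0.094% of all probes, and 1 had an unadjusted p under 0.05, against 9.86%. Loss of Derlin-2 without 4PBA called 0 of 17, beside 0.154% of all probes, and 4 had an unadjusted p under 0.05, against 6.98%. With 4PBA it called 0 of 17, beside 0.287%, and 0 had an unadjusted p under 0.05, against 5.14%. The effect of Derlin-1 loss minus that of Derlin-2 loss, both without 4PBA, was called at 0 of 17 probes, beside 0.0966%, and 2 had an unadjusted p under 0.05, against 10.96%. The effect of Derlin-1 loss without 4PBA in the lettered minus that in the numbered series was called at 0 of 17, beside 0.0183%, and 0 had an unadjusted p under 0.05, against 3.29%. None of 30 further differences between single 4PBA or KO effects was called at any of the 17 probes (lowest limma adjusted p = 0.310). There were 15 differences of each kind, each taken at all 17 probes. Of these tests, 17 between 4PBA effects and 11 between KO effects had an unadjusted p under 0.05. The share over all probes was not computed for them. Leaving out the 2 arrays that stand apart gave 0 of 17 in each of the 13 comparisons, with a lowest adjusted p of 0.0964.

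**Figure D2:**
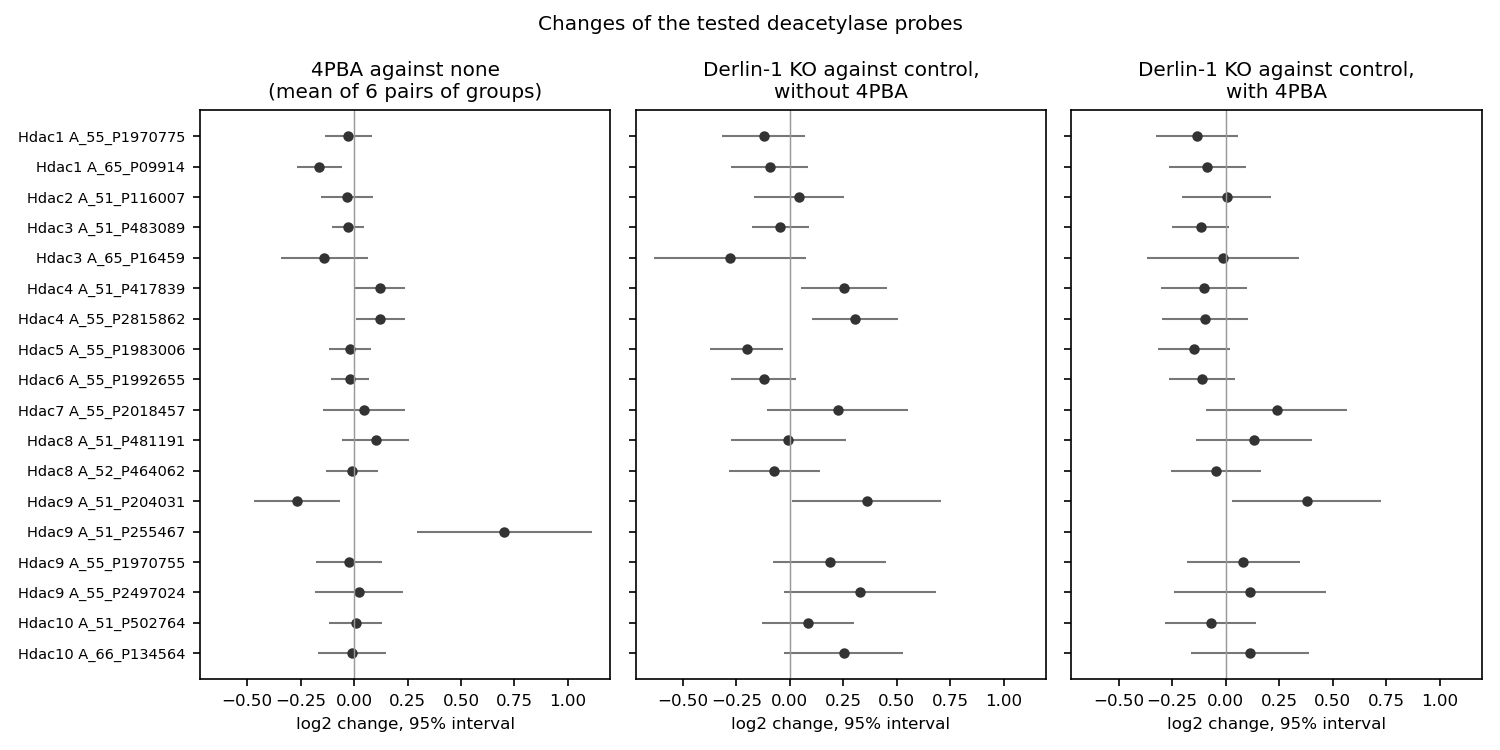
Log2 change (x axis) of the tested probes (y axis) with 4PBA over all 6 pairs of groups (18 probes), and in Derlin-1 KO against control without and with 4PBA (17 probes). Points are changes and lines their 95% intervals from limma; A_51_P255467, kept only through KO groups, is not drawn for KO against control. In the left panel all points but those of 2 Hdac9 probes lie between -0.16 and 0.12, and the Hdac4 probes lie to the right of 0 in the left and middle panels.

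Among class I genes, Hdac1 was read by 2 probes. The brighter, A_55_P1970775, ranged from 2.76 to 3.31 over the 24 arrays with a median of 3.07, and its change with 4PBA was -0.03 (SE 0.05, 95% interval -0.14 to 0.09, limma adjusted p = 0.904). The other, A_65_P09914, was lower with 4PBA in all 6 pairs of groups, by 0.05 to 0.39. On the Derlin-2 slide its levels were 0.83 and 0.85 in controls with vehicle, 0.39 and 0.52 in controls with 4PBA, 0.61 and 0.48 in KO with vehicle, and 0.40 and 0.35 in KO with 4PBA. The arrays with and without 4PBA did not overlap within either genotype there. Averaged over the pairs the change was -0.16 (SE 0.05, interval -0.27 to -0.06), with an unadjusted p of 0.00476 and an adjusted p of 0.260, and it was -0.15 without the 2 arrays that stand apart. The brighter probe was higher in 4 of the same 6 pairs and lower in 2, and the difference between the probes was not tested.

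Hdac2, the partner of Hdac1 in the same complexes, ranged from -3.72 to -3.22 at its single probe, with changes of -0.03 (SE 0.06) with 4PBA and 0.04 (SE 0.10) in Derlin-1 KO without 4PBA. Hdac3 was lower in KO than in control in all 6 pairs at its brighter probe, A_51_P483089, by 0.03 to 0.18, and none of these was called. Its change with 4PBA was -0.03 (SE 0.04, interval -0.10 to 0.05), among the narrowest intervals of the family. The second Hdac3 probe, A_65_P16459, was lower in KO than in control in 4 of the 6 pairs and higher in 2. It differed between the 2 arrays of a group: Derlin-1 control vehicle 1 read -4.39 and vehicle 2 read -3.46. The other arrays of that slide lay between -4.92 and -4.48. Its change in Derlin-1 KO without 4PBA was -0.28 (SE 0.17, adjusted p = 0.378). Without vehicle 1 it was -0.51 (adjusted p = 0.0459), and without vehicle 2 it was -0.05 (adjusted p = 0.921), so 1 array decides this value. In a fit that leaves 1 array in a group, that array is assumed to vary like the others.

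Hdac8, a class I enzyme that acts outside the large complexes and deacetylates cohesin, was read by 2 probes. A_52_P464062 changed by -0.01 (SE 0.06) with 4PBA and by -0.07 (SE 0.10) in Derlin-1 KO without 4PBA. A_51_P481191 changed by 0.10 (SE 0.07, adjusted p = 0.732) and -0.01 (SE 0.13). In Derlin-2 controls the latter read -4.00 and -3.81 with vehicle and -3.34 and -3.63 with 4PBA, a difference of 0.42 that was not called (limma adjusted p = 0.705).

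Class IIa held the probes nearest to a call. Of the promoter windows listed for this family (11 windows of 7 genes, RefSeq sequences on GRCm38.p6), those of Hdac4 and Hdac5 are shown because these genes lay on opposite sides of 0 in Derlin-1 KO without 4PBA, though not with it. Each run is the 250 bases before the listed start, in the direction of transcription, with GC boxes (GGGCGG, either strand) in capitals. The windows are chr1:92180342-92180591 and chr11:102230173-102230422, both on the minus strand.
Hdac4: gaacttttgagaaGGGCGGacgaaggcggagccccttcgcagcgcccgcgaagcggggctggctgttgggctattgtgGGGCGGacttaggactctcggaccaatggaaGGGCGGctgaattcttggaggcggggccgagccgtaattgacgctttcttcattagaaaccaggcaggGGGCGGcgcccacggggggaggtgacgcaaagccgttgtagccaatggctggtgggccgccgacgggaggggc
Hdac5: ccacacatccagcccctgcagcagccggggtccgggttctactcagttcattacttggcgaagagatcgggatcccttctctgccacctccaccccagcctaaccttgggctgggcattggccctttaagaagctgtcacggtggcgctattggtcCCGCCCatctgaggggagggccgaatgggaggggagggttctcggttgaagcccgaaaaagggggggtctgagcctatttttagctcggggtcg
The Hdac4 window held 4 GC boxes and the Hdac5 window held 1, and each held 2 CCAAT boxes (CCAAT, either strand, counted apart from any overlap with a GC box). Of all 32851 windows of this length, 32.7% held a GC box and 33.8% a CCAAT box. The cyclic AMP response element TGACGTCA (1.55% of all windows) and the ATF4 composite site TGATGNAA (3.45%) had no match in the 11 windows on either strand. These are letter matches and not sites of binding.

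Hdac4, whose enzyme is carried into the nucleus of neurons when its kinases are inactive, was read by 2 probes. Without 4PBA, the brighter probe A_51_P417839 read 0.18 and -0.20 in numbered Derlin-1 controls and 0.16 and 0.18 in the corresponding KO. In the lettered series it read 0.0076 and 0.08 in untreated controls and 0.38 and 0.36 in untreated KO. The lettered groups did not overlap and the numbered groups did. The second probe, A_55_P2815862, read -2.70 and -2.88 in numbered controls against -2.60 and -2.61 in KO. In the lettered series it read -1.78 and -1.92 in controls against -1.44 and -1.41 in KO. At this probe the KO arrays lay above the control arrays in both series.

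Averaged over both series, Hdac4 in Derlin-1 KO without 4PBA was 0.25 above control at the brighter probe (SE 0.09, interval 0.05 to 0.46, limma adjusted p = 0.141) and 0.30 at the second (SE 0.09, interval 0.10 to 0.51, adjusted p = 0.0761). Neither passed the threshold over all probes. With the replicate number or letter as a block, the second probe was called (adjusted p = 0.0419). The labels do not say whether the numbers or letters pair the samples. Neither change turned its sign under any of the alternatives run. With 4PBA the same comparison gave -0.10 at both probes (SE 0.09 each, adjusted p = 0.818 and 0.829), and -0.12 and -0.14 without the 2 arrays that stand apart. There the numbered KO arrays read 0.16 and 0.35 against 0.26 and 0.40 in controls at the brighter probe, and the lettered 0.05 and 0.13 against 0.18 and 0.25. The 4PBA change was 0.26 in Derlin-1 controls at both probes and -0.10 and -0.14 in Derlin-1 KO. The difference of these differences was -0.36 (SE 0.13) and -0.40 (SE 0.13), with an adjusted p of 1.0 at both. Without the 2 arrays that stand apart it was -0.38 and -0.44.

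In the Derlin-2 line Hdac4 lay higher with 4PBA in both genotypes, and neither change was called in limma. The brighter probe read 0.16 and -0.09 in controls with vehicle and 0.30 and 0.22 with 4PBA, and 0.12 and 0.42 in KO with vehicle and 0.47 and 0.43 with 4PBA. At this probe arrays with 4PBA lay above those without in each genotype. At the second probe they overlapped in controls and not in KO. In Derlin-2 KO, the size of the 4PBA change at the brighter Hdac4 probe depended on vehicle 1, the array whose Derl2 level stands apart. Without it and the other such array this 4PBA change was 0.03, against 0.19 with all arrays. At the second probe it was 0.25 and 0.23. Over all 6 pairs the 4PBA change was 0.12 at both probes (SE 0.05 each, adjusted p = 0.576 and 0.560), with 5 of 6 pairs above 0 at each. The pair that went the other way was Derlin-1 KO of the lettered series, at -0.28 and -0.34. The 2 probes varied together over the arrays: after each slide's mean was taken off, Pearson's r between them was 0.77 over 24 arrays that share 3 slides, the highest of any 2 probes of a gene in the family.

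**Figure D3:**
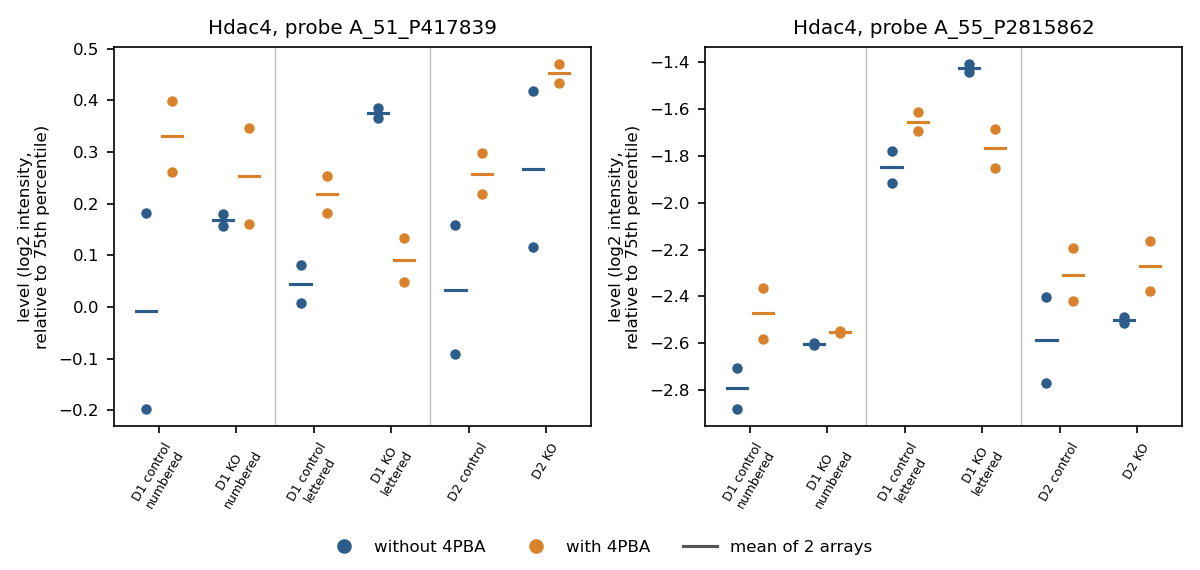
Level of both Hdac4 probes on each array (y axis, log2 intensity relative to the 75th percentile) by group (x axis; D1 and D2 are the Derlin-1 and Derlin-2 lines). Points are arrays, bars are means of 2 arrays, and colours are as labelled. In the lettered Derlin-1 KO the untreated arrays lie above the 4PBA arrays, and in the other groups the mean with 4PBA is the higher.

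Hdac5, a class IIa enzyme exported from the nucleus on neuronal activity, was below control in Derlin-1 KO. Without 4PBA its probe A_55_P1983006 read 4.16 and 4.21 in numbered controls and 4.08 and 4.05 in KO. It read 4.58 and 4.36 in lettered controls and 4.09 and 4.27 in KO. With 4PBA it read 4.23 and 4.26 in numbered controls and 4.00 and 4.11 in KO, and 4.40 and 4.39 in lettered controls and 4.23 and 4.36 in KO. Within each series and treatment the KO arrays lay below the control arrays. The averaged changes were -0.20 without 4PBA (SE 0.08, interval -0.37 to -0.03, limma adjusted p = 0.158) and -0.15 with it (SE 0.08, adjusted p = 0.587), and neither passed. In the Derlin-2 line the change was 0.12 without and -0.06 with 4PBA. Without the 2 arrays that stand apart, Hdac5 was at 0.24 in Derlin-2 KO without 4PBA and at -0.18 in Derlin-1 KO with 4PBA. The 4PBA change over all pairs was -0.02 (SE 0.05, interval -0.12 to 0.08).

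Hdac7, known for its roles in the endothelium and in thymocytes, spread more widely, from -0.57 to 0.56 over the arrays. The highest array was lettered Derlin-1 KO untreated a, while replicate b of that group read -0.14. Its changes were 0.22 (SE 0.15, limma adjusted p = 0.467) in Derlin-1 KO without 4PBA, 0.24 (SE 0.15) with 4PBA, and 0.05 (SE 0.09) for 4PBA. The first of these was 0.05 without KO untreated a and 0.40 without b (adjusted p = 0.955 and 0.0982).

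Hdac9 was the member with the most probes. The gene gives rise to several transcript isoforms, among them one that ends before the catalytic domain, and which isoform each probe reads is not known here. The brightest probe, A_55_P1970755, ranged from -1.66 to -0.61, and its change with 4PBA was -0.02 (SE 0.07, interval -0.18 to 0.13). A_55_P2497024 changed by 0.02 (SE 0.10). These 2 correlated at r = 0.61 over the 24 slide-centred arrays, and the remaining pairs of tested Hdac9 probes at -0.35 to 0.24. In Derlin-1 KO without 4PBA the 3 probes above background on all arrays were 0.19 (SE 0.12), 0.33 (SE 0.17) and 0.36 (SE 0.16) above control from the brightest to the dimmest, with limma adjusted p of 0.447, 0.295 and 0.233.

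The next Hdac9 probe, A_51_P204031, was lower with 4PBA in 6 of 6 pairs, by 0.03 to 0.78, and its averaged change was -0.27 (SE 0.09, adjusted p = 0.412). In Derlin-2 controls with vehicle it read -2.90 on array 1 and -1.94 on array 2, against -3.25 and -3.15 with 4PBA, and array 2 was the highest of all 24. Without array 2 the averaged change was -0.19 (adjusted p = 0.378). Without array 1, which leaves array 2 as the only vehicle control of that line, it was -0.35 (adjusted p = 0.0236). Derlin-2 KO against control without 4PBA likewise moved from -0.62 (adjusted p = 0.599) to -0.14 without array 2 (adjusted p of 1.0) and -1.11 without array 1 (adjusted p = 0.0144). The change with 4PBA in Derlin-2 controls was -0.78 with both arrays (adjusted p = 0.392), -0.30 without array 2 and -1.27 without array 1 (adjusted p = 0.00437). The effect of Derlin-1 loss minus that of Derlin-2 loss went from 0.98 to 0.50 without array 2 and to 1.47 without array 1 (adjusted p = 0.0079). Each of these values thus turned on 1 of 2 arrays.

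The dim Hdac9 probe A_51_P255467 was well above background on 10 of 12 KO arrays and 2 of 12 control arrays. Of the 346 probes above background on 12 arrays, 3 (0.867%) were so on at least 10 KO arrays. The probe was tested only because 4 KO groups had both arrays above background. This split by genotype and the fold bounds below are therefore descriptions, and they do not test a difference between KO and control. Its fitted changes rest in part on readings below background. With 4PBA it was above background on both Derlin-2 KO arrays, at -3.17 and -4.75, and on neither Derlin-2 control, whose mean was -5.38. The bound this allows is at least 2.21-fold higher in KO, from the mean of the KO arrays over a ceiling for each control array: its lowest above-background signal, or its reading at this probe where that was higher. It rests on array 1: the dimmer array 2 alone gave at least 1.28-fold. In the Derlin-1 line the same bound was at least 1.07-fold in the lettered series without 4PBA, where 2 of 2 KO arrays were above background. No bound is given for the numbered series, where 1 of 2 KO arrays was above background without 4PBA and 1 of 2 with it. Nor is a bound given for the lettered series with 4PBA or the Derlin-2 line without it, where 1 control array was also above background. Over all 6 pairs its 4PBA change was 0.70 (SE 0.19, adjusted p = 0.185), and it was 1.84 in Derlin-2 KO (adjusted p = 0.198). Without the 2 arrays that stand apart these were 0.73 (adjusted p = 0.375) and 1.92 (adjusted p = 0.338). Without Derlin-2 KO 4PBA array 2 alone, the dimmer of the pair, they were 0.83 (adjusted p = 0.0362) and 2.63 (adjusted p = 0.0178). Without array 1 they were 0.57 (adjusted p = 0.208) and 1.05 (adjusted p = 0.711).

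The background itself differed between the rows that carry arrays with and without 4PBA. On the Derlin-2 slide the lowest signal called above background lay between 27.4 and 38.0 on arrays with 4PBA and between 14.9 and 17.4 on those without. On the numbered Derlin-1 slide the ranges were 19.1 to 26.5 and 15.8 to 17.2, and on the lettered slide 14.8 to 18.8 and 14.7 to 15.0. Its part in the change of the dim Hdac9 probe was not tested. The untested Hdac9 probe A_55_P2065074 ran from -8.30 to -5.31, and its highest array was the same Derlin-2 KO 4PBA array 1 that was highest at A_51_P255467.

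**Figure D4:**
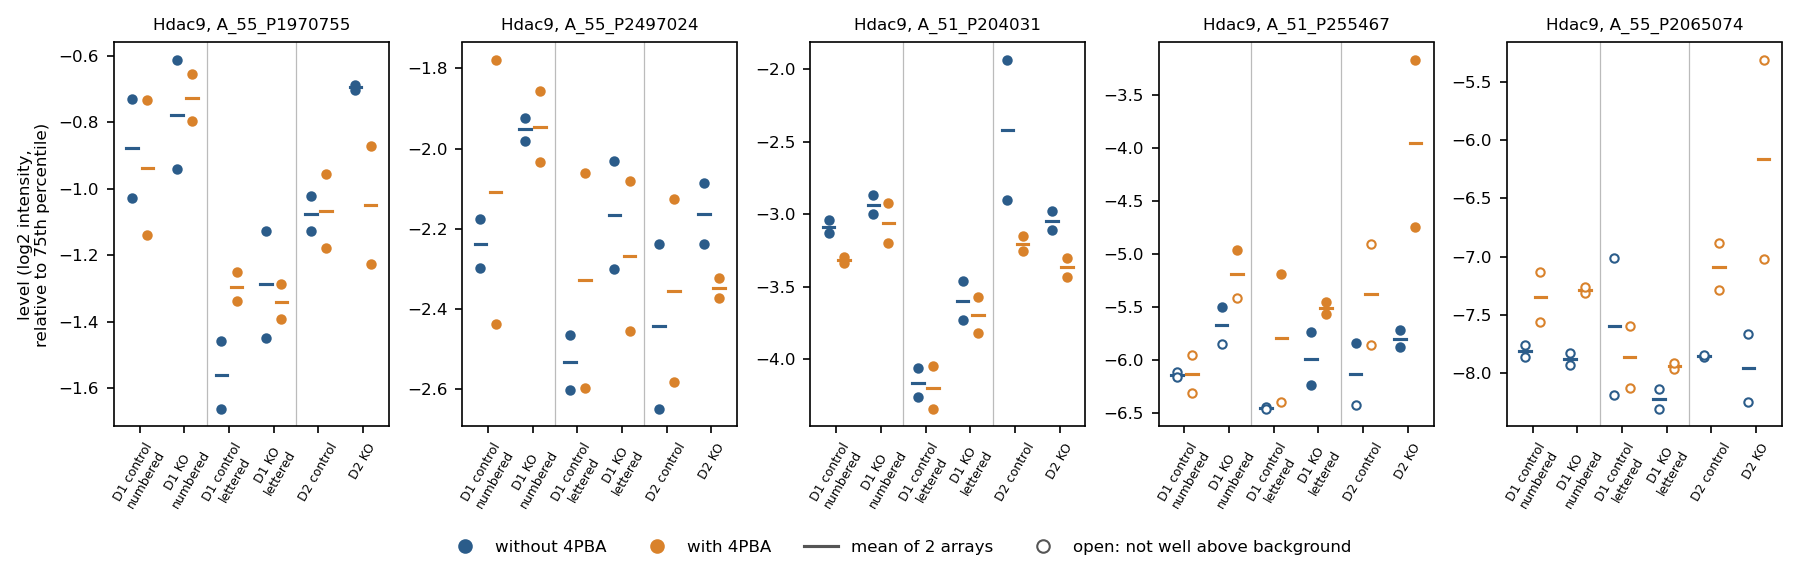
Level of the 5 Hdac9 probes on each array (y axis, log2 intensity relative to the 75th percentile; the axes differ between panels) by group (x axis; D1 and D2 are the Derlin-1 and Derlin-2 lines). Filled points were well above background and open points were not, and bars are means of 2 arrays. At A_51_P204031 a single vehicle control stands at -1.94, and at both dim probes Derlin-2 KO 4PBA array 1 is the highest.

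Among class IIb genes, Hdac6 was among the steadiest, with levels from 1.93 to 2.36. Its change with 4PBA was -0.02 (SE 0.04, interval -0.11 to 0.07). In the numbered Derlin-1 series the controls read 2.33 and 2.32 with vehicle and 2.16 and 2.36 with 4PBA, and the KO read 1.98 and 2.12 with vehicle and 2.01 and 2.07 with 4PBA. Every KO array there lay below every control. In the lettered series they overlapped, and the averaged change without 4PBA was -0.12 (SE 0.07, limma adjusted p = 0.369). Hdac10 had changes with 4PBA of 0.0069 (SE 0.06) at its brighter probe A_51_P502764 and -0.0088 (SE 0.08) at A_66_P134564. In Derlin-1 KO without 4PBA they were 0.08 (SE 0.10) and 0.25 (SE 0.13, adjusted p = 0.302). The second probe was 0.49 above control in Derlin-2 KO without 4PBA (SE 0.18, adjusted p = 0.607), and by 0.27 without the vehicle 1 array that stands apart. The first was 0.05 above it (SE 0.14), and -0.04 without that array.

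Levels also differed between slides. The range of the 3 slide means exceeded the largest of the 12 genotype and 4PBA changes within single slides at 9 of the 18 probes. On the lettered slide 5 of 18 probes had levels that did not overlap those on the other 16 arrays, where 16.8% of all probes did so. Hdac3 (A_51_P483089, 0.34 higher), Hdac4 (A_55_P2815862, 0.84 higher), Hdac8 (A_52_P464062, 0.59 higher) and Hdac10 (A_51_P502764, 0.64 higher) lay above, and Hdac9 (A_51_P204031) lay below, at a mean of -3.91 against -3.05. Hdac4 shows how far this depends on the probe: its brighter probe differed by -0.04 between the same arrays. The median size of the difference was 0.32 over the family and 0.36 over all probes. The series, the slide and the day of scanning cannot be told apart here, and all changes above were therefore taken within slides.

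**Figure D5:**
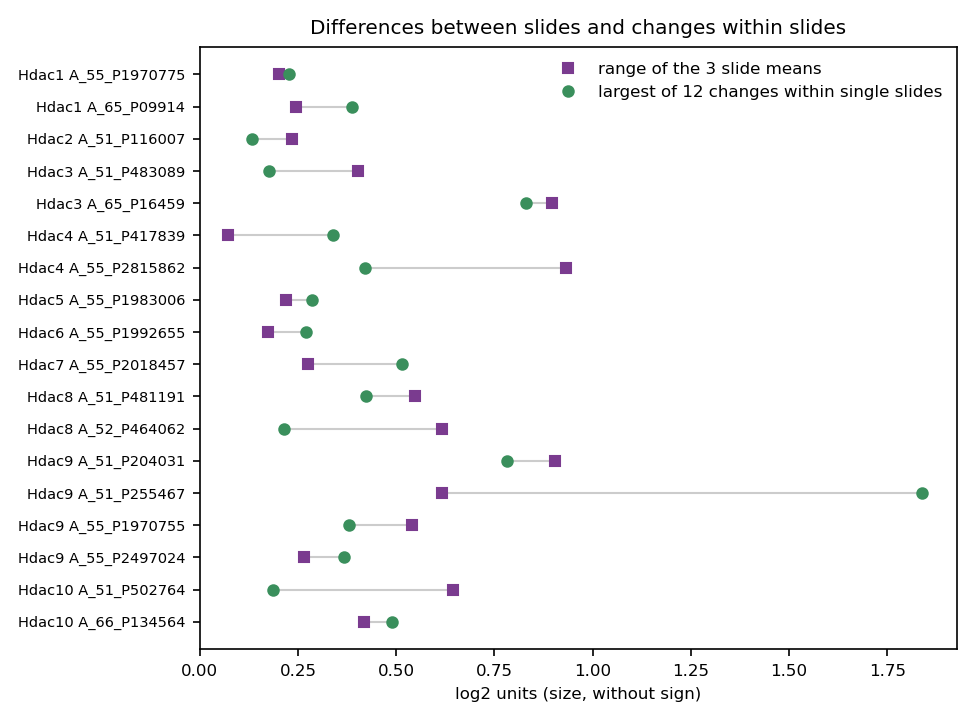
For each of the 18 probes (y axis), the range of the 3 slide means (squares) and the largest of the 12 genotype and 4PBA changes within single slides (circles), both in log2 units without sign (x axis). The square lies to the right of the circle at 9 probes, a count not made over all probes. The circle at 1.84 is the dim Hdac9 probe.

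Markers of other cells moved in the comparison where Hdac4 and Hdac5 came nearest to a call. In Derlin-1 KO without 4PBA the summed level of 3 microglial markers (Aif1, Trem2, C1qa) was 2.53 to 3.11, against 0.92 to 1.45 in controls, and all 3 were called, at 1.49, 1.77 and 1.43. With 4PBA the ranges were 1.11 to 2.76 in KO and 0.93 to 1.57 in controls. The 1.11 is the 4PBA b array that stands apart at Derl3, and without it the KO range was 2.30 to 2.76. The sum of 3 granule neuron markers (Gabra6, Neurod1, Cbln3) was 4.99 to 5.97 in KO and 5.89 to 6.47 in controls, with Gabra6 (-0.76) and Neurod1 (-0.68) called and Cbln3 (-0.31) not. Of 3 markers of Bergmann glia and astrocytes, Gfap (1.25) was called and Slc1a3 (-0.09) and Gdf10 (0.10) were not, and their summed level overlapped, at 5.58 to 6.34 in KO and 5.44 to 6.29 in controls. Of the choroid plexus markers, Ttr ranged from 0.49 to 7.81 over the 24 arrays. The part of these cell markers in the Hdac4 and Hdac5 values was not tested.

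The other genes of the system were read with 1 probe a gene. Of 17013 such genes, 0.353% were called for 4PBA over all pairs, 6.72% for Derlin-1 KO without 4PBA and 0.0882% with 4PBA, with median changes of -0.02, -0.01 and -0.02. The zinc-dependent Hdac11 and the 7 sirtuins had 0 of 8 called in each of these comparisons, with medians of -0.05, -0.09 and -0.07. Subunits of the Sin3, NuRD, CoREST and NCoR complexes had 0 of 26 called in each, with medians of -0.04, 0.07 and 0.01, and histone acetyltransferases had 0 of 10, with medians of 0.01, -0.04 and -0.03.

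Partners of the class IIa enzymes (Mef2 factors, 14-3-3 proteins, and the kinases that send these enzymes out of the nucleus) had 0 of 13 called in each comparison, with medians of -0.03, -0.20 and -0.09. In Derlin-1 KO without 4PBA 8 of the 13 lay below 0 and 5 above, where 52.6% of all probes lay above. Camk4, a kinase of class IIa enzymes abundant in granule neurons, was at -0.44 (SE 0.14, limma adjusted p = 0.0847). Camk2d, another such kinase, was at -0.23 (SE 0.08, adjusted p = 0.111), the 14-3-3 gene Ywhag at -0.22 (SE 0.08, adjusted p = 0.137) and the kinase gene Prkd1 at 0.76 (SE 0.29, adjusted p = 0.149). None of these 4 passed, and they were named after their values were seen.

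Of 6 genes that deacetylase inhibitors raise in other cells, 0 were called with 4PBA in limma, and 5 of the 6 lay below 0. Over all probes 46.5% lay above 0 with 4PBA. Cdkn1a, the cell cycle inhibitor p21, changed by -0.21 (SE 0.10, adjusted p = 0.574) and the linker histone gene H1f0 by -0.21 (SE 0.10, adjusted p = 0.577). Gsn and Hspa1a lay at -0.02 and -0.01, Hspa1b at -0.15 and Bdnf at 0.09. Cdkn1a was the only gene of these lists called in any of the 3 comparisons: it rose by 1.06 in Derlin-1 KO without 4PBA (SE 0.16, adjusted p = 0.00539), and the other 5 were not called there. The summed microglial markers were also higher in those KO arrays, as given above, and their part in the Cdkn1a change was not tested.

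After slide means were taken off, the highest Pearson r between the brightest probes of 2 members over the 24 arrays was 0.68 between Hdac1 and Hdac5, and the lowest was -0.62 between Hdac7 and Hdac8. Probes of the same gene correlated at 0.46 for Hdac1, 0.39 for Hdac10, 0.19 for Hdac3 and -0.22 for Hdac8. Among 14269 genes well above background on every array, those with the pattern most like each member were Trnp1 for Hdac1 (r = 0.85), Pcgf3 for Hdac2 (0.87), Bhlhe40 for Hdac3 (0.81), Ext1 for Hdac4 (0.79), Gm8709 for Hdac5 (0.93), Camkk1 for Hdac6 (0.81), Eif4ebp3 for Hdac7 (0.80), Mrpl15 for Hdac8 (0.88), Epb41l4a for Hdac9 (0.77) and Prpf40b for Hdac10 (0.84). These are the highest of many values over arrays that share slides and tissue composition, and are given as a description.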

How the data were processed

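Cy3-labelled RNA was read with Agilent Feature Extraction 10.7.1.1, per the submitters' processing notes. The deposited value of each spot is its processed signal, a linear intensity after background subtraction, per the file headers. How arrays were scaled to each other is not given in the sources used here. Control spots and outlier-flagged spots (52 to 637 per array) were left out and repeated spots averaged as log2. Each array was lowered by its 75th percentile, which lay between 890 and 1169 in intensity. A probe was kept if 1 or more groups had both of their arrays well above background at it. Symbols came from the transcript accession through a RefSeq table of another build than the arrays', used for names only; 32994 of 56605 probes matched.

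A model with 12 group means was fitted with limma 3.58.1 (R 4.3.3, data.table version 1.17.8; 12 residual degrees of freedom). Comparisons were averaged over slides with equal weight, tests were two-sided, p-values were Benjamini-Hochberg adjusted over all kept probes, and every adjusted p is limma's. The fit was tested on simulated data. Precision is limited by having 2 arrays in a group. Alternatives covered scaling, background correction, the dim-probe filter, flags, variance model, probe choice, a replicate block, the authors' series table, single slides and single arrays.

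All 10 members are named by every probe, and Derl1, Derl2 and Derl3 as a check. Of each gene list the genes called are named, at most 4 per direction (further list genes were named after their values were seen), and for each member the gene of highest slide-centred r. The members and lists were chosen with earlier results of these data known.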

Additional observations from a re-analysis of the deposited data

How the results depend on the processing

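The count of called deacetylase probes, here over all 18 in each comparison, stayed at 0 under every alternative run in the 13 comparisons, except as follows. Without the filter on dim probes, 2 were called with 4PBA over all pairs and 2 in Derlin-2 KO; both times these were the dim Hdac9 probes A_51_P255467 and A_55_P2065074. With the replicate number or letter as a block, 1 was called in Derlin-1 KO without 4PBA, Hdac4 A_55_P2815862 (adjusted p = 0.0419). Same-numbered arrays correlated at -0.21 to 0.64 in their deviations from group means, and whether the numbers pair the samples is not known. With single arrays left out, the counts ranged from 0 to 1 for 4PBA over all pairs, in Derlin-2 controls and in Derlin-2 KO, for Derlin-1 KO and Derlin-2 KO without 4PBA and for their difference, and were 0 in the other 7 comparisons. Calls of all probes ranged more widely, from 6 to 7761 with 4PBA over all pairs (7761 without the filter) and from 11 to 3317 in Derlin-1 KO without 4PBA. The causes were not tested. Scaling by the median shifted the median change of all probes by -0.09 with 4PBA and -0.13 in Derlin-1 KO without 4PBA; of called probes 38.9% and 31.9% were then higher, against 66.5% and 49.8%. With 4PBA the higher share was also 36.4% with quantile normalization, 30.2% with normexp, 8.11% over only the probes above background on all 24 arrays, and 95.2% without the filter; in Derlin-1 KO without 4PBA these 4 gave 53.0%, 54.0%, 44.1% and 54.3%. Normexp was run on median signals, chosen after seeing the data. Low signal limits Hdac9 at its 2 dim probes.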
